A study of Mus musculus with 16 samples.

Results

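Mouse livers that lacked both the autophagy gene Atg7 and the transcription factor Nrf2 were compared with wild-type liver on 4 of the series' 16 arrays, which made up 2 of its 8 dye-swapped experiments. The 4 arrays were chosen by their titles, which pair wild type with Atg7F/F:Mx1-Cre:Nrf2-/- mice (experiments 3 and 6, each with its dye-swapped array), and not by any measured value. The double knockout (DKO) carried floxed Atg7 alleles, a Cre recombinase under the Mx1 promoter and germline null alleles of Nrf2, whose gene is Nfe2l2. Per the labels, mice were injected with pIpC, a double-stranded RNA that induces the Mx1 promoter, at 8 weeks of age, control mice were injected as well, and liver RNA was taken 4 weeks later. Mx1-Cre is not restricted to hepatocytes, so other pIpC-responsive cells of the liver and blood could also have lost Atg7. The remaining arrays paired wild type with Nrf2-/- mice (experiments 1 and 4) or with Atg7F/F:Mx1-Cre mice, the Atg7 conditional knockout (experiments 2 and 5), and the double knockout with the Atg7 conditional knockout (experiments 7 and 8). The labels do not say how many animals gave each RNA, whether experiments shared wild-type RNA, or the animals' sex, so p-values measure only the spread between these experiments, which may be partly technical.

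Atg7 is the activating enzyme of the conjugation reactions that put LC3 on the growing autophagosome, and cells without it cannot carry out canonical autophagy. The receptor protein p62 (gene Sqstm1) is normally degraded by autophagy; when it accumulates it binds Keap1, the adaptor that sends Nrf2 to the proteasome, and Nrf2 then switches on genes of glutathione synthesis, quinone reduction and conjugation through antioxidant response elements. Autophagy-deficient mouse liver is known for swollen hepatocytes, p62 inclusions and injury, and the double knockout asks which of its expression changes need Nrf2. Inflammatory genes are driven from other promoter elements: interferon response elements for the interferons, kappaB sites for NF-kappaB, and palindromic sites for the STAT factors.

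Promoters of 8 genes on which the results turn are shown, because they carry the letters of these elements: interferon-induced GTPase and antiviral genes, 2 chemokine genes, and Gclm, a glutathione synthesis gene. Each is the 250 bases before the RefSeq transcription start (build GRCm38.p6), written 5′ to 3′ on the gene's strand, and capitals mark every match to 1 of 4 motifs searched on both strands. The motifs were TGACNNNGC (antioxidant response element), GAAA and GAAA with 2 bases of any kind between them (interferon response element), GGGA, any base, TT, any base and CC in that order (kappaB), and TTCNNNGAA (STAT, which is its own reverse complement). Tgtp1 lies at chr11:48992247-48992496 (minus strand), Igtp at chr11:58199306-58199555 (plus), Gbp2 at chr3:142620413-142620662 (plus), Isg15 at chr4:156200819-156201068 (minus), Rsad2 at chr12:26456453-26456702 (minus), Cxcl10 at chr5:92348890-92349139 (minus), Cxcl1 at chr5:90890995-90891244 (plus) and Gclm at chr3:122245307-122245556 (plus).
Tgtp1: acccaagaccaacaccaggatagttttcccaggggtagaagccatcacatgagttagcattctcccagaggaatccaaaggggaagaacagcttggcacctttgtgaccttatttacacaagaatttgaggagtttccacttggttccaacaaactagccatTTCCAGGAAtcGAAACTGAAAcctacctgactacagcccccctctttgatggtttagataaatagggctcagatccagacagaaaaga
Igtp: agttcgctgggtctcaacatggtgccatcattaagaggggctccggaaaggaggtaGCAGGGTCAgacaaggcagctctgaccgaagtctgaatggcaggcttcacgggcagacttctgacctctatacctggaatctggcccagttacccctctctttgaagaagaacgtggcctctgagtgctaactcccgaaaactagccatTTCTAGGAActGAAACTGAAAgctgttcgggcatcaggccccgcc
Gbp2: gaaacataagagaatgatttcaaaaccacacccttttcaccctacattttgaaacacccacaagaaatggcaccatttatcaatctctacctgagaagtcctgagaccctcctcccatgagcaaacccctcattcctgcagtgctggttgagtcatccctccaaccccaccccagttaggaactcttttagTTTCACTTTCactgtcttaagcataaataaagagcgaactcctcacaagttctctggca
Isg15: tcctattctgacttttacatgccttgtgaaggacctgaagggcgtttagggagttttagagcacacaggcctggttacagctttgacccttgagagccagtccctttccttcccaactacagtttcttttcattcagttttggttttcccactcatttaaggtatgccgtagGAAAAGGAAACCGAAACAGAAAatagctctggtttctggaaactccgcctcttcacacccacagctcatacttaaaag
Rsad2: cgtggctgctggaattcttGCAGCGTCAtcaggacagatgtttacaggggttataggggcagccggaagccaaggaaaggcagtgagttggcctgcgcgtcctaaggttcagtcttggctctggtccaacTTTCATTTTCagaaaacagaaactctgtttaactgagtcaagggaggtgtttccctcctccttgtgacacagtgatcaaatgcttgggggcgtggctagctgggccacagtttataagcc
Cxcl10: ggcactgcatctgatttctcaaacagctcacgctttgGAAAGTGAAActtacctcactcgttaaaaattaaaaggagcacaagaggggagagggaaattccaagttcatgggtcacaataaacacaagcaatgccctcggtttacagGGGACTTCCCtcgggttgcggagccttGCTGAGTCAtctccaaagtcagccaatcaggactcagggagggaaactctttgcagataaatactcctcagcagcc
Cxcl1: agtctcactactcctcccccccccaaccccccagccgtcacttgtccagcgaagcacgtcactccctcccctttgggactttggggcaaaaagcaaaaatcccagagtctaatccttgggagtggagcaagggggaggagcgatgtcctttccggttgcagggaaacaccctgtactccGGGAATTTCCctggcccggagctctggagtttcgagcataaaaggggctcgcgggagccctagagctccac
Gclm: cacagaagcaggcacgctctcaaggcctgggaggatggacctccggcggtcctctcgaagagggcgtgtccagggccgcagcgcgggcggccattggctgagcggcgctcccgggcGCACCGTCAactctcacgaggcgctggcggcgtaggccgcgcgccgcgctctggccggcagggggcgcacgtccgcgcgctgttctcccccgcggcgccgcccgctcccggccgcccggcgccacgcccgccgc

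In Tgtp1 and Igtp a STAT match was followed, after 2 bases, by an interferon match. Isg15 held 3 interferon matches that overlapped one another, and no match of one motif overlapped a match of another in the stretches shown. Cxcl10 held an interferon, a kappaB and an antioxidant match, Rsad2 an antioxidant and an interferon match, and Igtp also an antioxidant match. Over the windows of all 32851 promoters in the RefSeq table, which reached from 250 bases before to 50 bases after the start, the antioxidant motif was found in 12.4%, the interferon motif in 3.44%, the kappaB motif in 1.20% and the STAT motif in 8.30%. A match is a description of the letters and was not tested as a binding site.

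The DKO arrays had median mean signals of 41.8 to 55.6 against median local backgrounds of 34.5 to 36.5, and 43.4% to 56.2% of 43379 spots were well above background. Ratios are log2 of double knockout over wild type, so 1 is a 2-fold difference, and the values of a gene on the 4 arrays are given in the order experiment 3, experiment 3 dye-swapped, experiment 6, experiment 6 dye-swapped. The 2 arrays of a dye swap were averaged to 1 replicate (n = 2), and SDs are over the 2 experiments. A gene is called when its adjusted p in limma (Benjamini-Hochberg over all 16377 genes tested) is under 0.05. Across genes, which are not independent replicates, the 2 dye orientations correlated at 0.956 in experiment 3 and 0.922 in experiment 6, and the 2 experiments at 0.865. In experiment 3 the Y-linked Ddx3y and Eif2s3y were well above background in both channels and the X-inactivation transcript Xist was not, whereas in experiment 6 Xist was and these Y-linked genes were not. The experiments therefore differed in a sex-linked signal that both genotypes of a pair shared, and the mean ratios of Xist (0.06), Ddx3y (0.02) and Eif2s3y (0.07) were near 0.

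The targeted genes were examined first. The Nfe2l2 probe on mm9 chromosome 2 at 75513771 to 75513830 gave -3.35, -3.27, -4.04 and -4.16, a mean of -3.71 ± 0.56 (SD, n = 2; adjusted p = 0.000675). A second probe to the same transcript averaged -3.04 ± 0.31, and another, to a cDNA clone, 0.06 ± 0.17. Atg7 was read by a probe on chromosome 6 at 114726985 to 114727044 at -0.83, -0.63, -0.73 and -0.74, a mean of -0.73 (adjusted p = 0.000829), and on Agilent's processed signals, which carry no offset, at -2.99. This probe was well above background in the wild-type channel of 4 arrays and in the DKO channel of 1. The other Atg7 probe, to a cDNA clone, stayed at -0.03 ± 0.02. Both losses were thus present in every array, at the probes to the reference transcripts.

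Across the genome 3509 of 16377 genes (21.4%) were higher in the double knockout and 2615 (16%) were lower. At least 2-fold, 675 (4.12%) were higher and 383 (2.34%) lower. Of all called genes, 6010 had the same sign on the 4 arrays. The median ratio over all tested genes was 0.006 after loess. Higher genes made up 57.3% of the calls, but 85.7% with median centring in place of loess (which shifts the median of all genes by 0.143), 64.1% on processed signals and 46.7% on the deposited value table, so small differences near 0 depend on the scaling. The Nrf2 knockout alone had 2 called genes, both lower, by limma (606 at an unadjusted p under 0.05), and the Atg7 conditional knockout had 3834 higher (23.4%) and 2662 lower (16.3%). These comparisons all use wild-type liver as the partner, so their values are given only side by side.

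**Figure D1:**
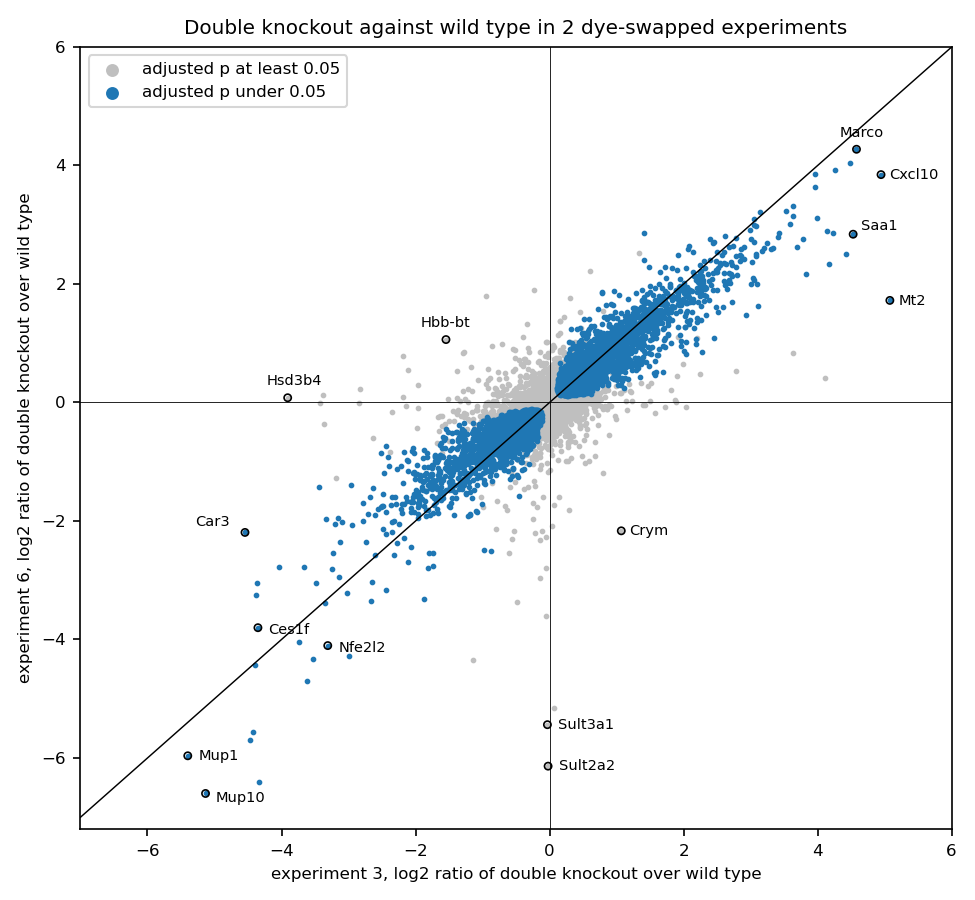
Log2 ratio of double knockout over wild type for each of 16377 genes in experiment 3 (x axis) and experiment 6 (y axis), with called genes in blue and the line of equality in black. Marco, Cxcl10 and Saa1 lie high and Mup1, Mup10, Ces1f and Nfe2l2 low in both experiments, whereas Sult3a1 and Sult2a2 are low only on the experiment 6 axis and Hsd3b4 only on the experiment 3 axis.

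Among the highest ratios were those of macrophage, interferon, chemokine and acute phase genes. Marco, a scavenger receptor of macrophages, lay at 4.68, 4.48, 4.35 and 4.19, a mean of 4.43 ± 0.22 (adjusted p = 0.000229). Cxcl10, the interferon-induced chemokine that attracts activated T cells, lay at 5.0, 4.89, 3.95 and 3.74, a mean of 4.40 ± 0.78 (adjusted p = 0.00135). Rsad2, which encodes the antiviral enzyme viperin, lay at 4.56, 4.40, 4.08 and 4.0. The 4 arrays of each gene stood together far above 0, with experiment 3 the higher of the 2 experiments. Slpi, a secreted protease inhibitor, averaged 4.09 ± 0.24, Tgtp1 3.91 ± 0.08 and the neutrophil chemokine Cxcl1 3.80 ± 0.24. Plac8 averaged 3.56 ± 0.62, Chil3, a chitinase-like protein of activated macrophages, 3.46 ± 1.36, and S100a4, a calcium-binding protein, 3.39 ± 0.35. Mt2, a metallothionein, gave 5.41, 4.74, 2.08 and 1.37, so that its mean of 3.40 ± 2.37 (adjusted p = 0.0417) rested mostly on experiment 3; it stood at 1.94 in the Nrf2 knockout, which was not called.

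Among the lowest ratios were those of major urinary proteins, carboxylesterases and other products of mature hepatocytes. Mup10 averaged -5.87 ± 1.04 and Mup1 lay at -4.92, -5.88, -5.14 and -6.79, a mean of -5.68 ± 0.40 (adjusted p = 0.000282). Ces1f, a carboxylesterase, lay at -4.29, -4.41, -3.70 and -3.90 (mean -4.08 ± 0.39, adjusted p = 0.000675). These 3 genes lay below 0 by a wide margin on every array. The sulfotransferase Sult2a8 averaged -3.82 ± 0.79, Dct, dopachrome tautomerase, -3.63 ± 0.91, and Etnppl, which breaks down phosphoethanolamine, -3.41 ± 0.90. Car3, a carbonic anhydrase of fat and liver, gave -4.14, -4.95, -1.76 and -2.63, again the larger in experiment 3.

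**Figure D2:**
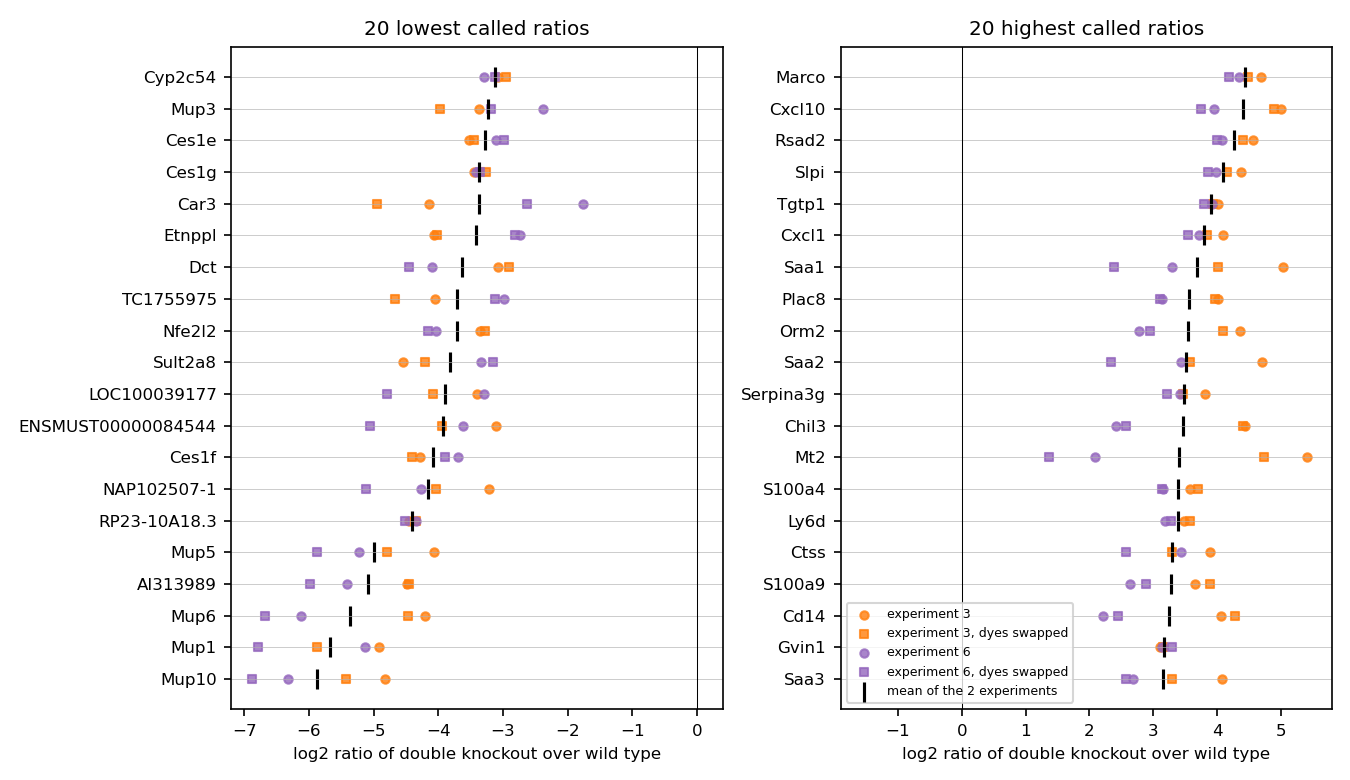
Log2 ratio of double knockout over wild type on each of the 4 arrays for the 20 lowest (left) and 20 highest (right) called genes with 1 sign on all arrays; circles and squares are the 2 dye orientations, colours the 2 experiments, and black bars the mean. By this choice all points of a gene lie on 1 side of 0. Marco and Tgtp1 are tight, whereas Mt2 spans 1.37 to 5.41.

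Of 30 tested genes of the autophagy machinery 2 rose (6.67%) and 9 fell (30%), beside 21.4% and 16% of all genes. The list median was -0.03 against 0.006 over all genes. Atg3, the enzyme that transfers LC3 to lipid, fell by 0.98 ± 0.15, Atg101, of the initiating kinase complex, averaged -0.83 ± 0.40, and Gabarapl1, an LC3 relative, -0.76 ± 0.19. Vmp1, a membrane protein of autophagosome formation, rose by 0.75 ± 0.47 and Uvrag, a regulator of the lipid kinase complex, by 0.37 ± 0.16. The list's direction followed the scaling: median centring gave 7 higher and 3 lower, and leaving out experiment 3 gave 0 and 3. Among 13 selective autophagy receptors 3 rose (23.1%, near the share of all genes) and 1 fell (7.69%), with a median of 0.10. Median centring gave 7 and 1. Sqstm1, which encodes p62 and is itself an Nrf2 target, lay at 0.83, 0.42, 0.73 and 0.06 (mean 0.51 ± 0.16, adjusted p = 0.00713), beside 1.40 in the Atg7 conditional knockout. Stbd1, a glycogen receptor, averaged 0.87 ± 0.28, and Bnip3, a mitophagy receptor, -1.18 ± 0.28.

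Lysosomal genes moved up as a group. Of 32 tested, 19 rose and 2 fell (median 0.46), and 12 rose and 1 fell without experiment 3. Ctss, the cysteine protease of antigen-presenting cells, averaged 3.30 ± 0.41, Ctsc, which activates granule proteases, 2.20 ± 1.03, and Lgmn, the asparagine endopeptidase, 1.46 ± 0.05. Cd63, a membrane protein of late endosomes, averaged 1.33 ± 0.11 and the protease gene Ctsb 1.13 ± 0.27. Lamp2, a membrane glycoprotein that lysosomes need to fuse with autophagosomes, fell by 1.0 ± 0.16, and Mcoln1, a lysosomal ion channel, averaged -0.21 ± 0.04 but 0.08 under median centring. Macrophage markers, described later, were higher in the same livers, and their part in the lysosomal values was not tested.

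Antioxidant and conjugation genes that Nrf2 is known to control did not stand above wild type as a group. Of 28 targets outside glutathione metabolism, a list that includes Nfe2l2 itself, 5 were higher and 15 lower than wild type (median -0.39), whereas the same list had a median of 1.27 with 26 higher and 0 lower in the Atg7 conditional knockout, and of -0.32 in the Nrf2 knockout, where Nfe2l2 was its only called member. Scaling moved the lower count, to 9 with median centring and 8 on processed signals. Hybridised directly against the Atg7 conditional knockout on the deposited value table, where 1103 genes (6.74%) were higher and 1323 (8.08%) lower, 0 of the 28 were higher and 25 lower. Through wild type, where 287 genes (1.75%) were higher and 526 (3.21%) lower than in the Atg7 conditional knockout, the counts were 0 and 25 as well.

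Nqo1, the quinone reductase, gave -0.30, -0.47, -1.02 and -1.23 over wild type (mean -0.76 ± 0.52, adjusted p = 0.0303), beside 2.23 in the Atg7 conditional knockout. Srxn1, sulfiredoxin, which repairs oxidised peroxiredoxins, gave -0.32, -0.30, -0.43 and -0.29 (mean -0.33 ± 0.03, adjusted p = 0.00896), beside 4.18. Both sat slightly below wild type on all 4 arrays. Directly against the Atg7 conditional knockout Srxn1 was lower by a log2 ratio of -4.69 (adjusted p = 2.54e-05). Txnrd1, thioredoxin reductase, at -0.38 (adjusted p = 0.0952) and Abcc4, an efflux pump, at 0.12 (adjusted p = 0.709) were not called against wild type, and stood at 1.96 and 3.97 in the Atg7 conditional knockout. The oxidase gene Aox1 averaged -2.22 ± 0.08, the glucuronosyltransferase gene Ugt2b35 -1.92 ± 0.06 and the retinaldehyde dehydrogenase gene Aldh1a1 -1.79 ± 0.31.

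The 5 genes called higher were 17.9% of the list, a share below the 21.4% of all genes. Hmox1, haem oxygenase, lay at 1.5, 1.53, 1.49 and 1.59 (mean 1.53 ± 0.02, adjusted p = 0.00069), beside 1.31 in the Atg7 conditional knockout, and all 4 arrays fell within a narrow range. Cbr3, a carbonyl reductase, lay at 1.65, 1.76, 1.53 and 1.5 (mean 1.61 ± 0.14, adjusted p = 0.000924), beside 4.99. Akr1b7, an aldose reductase relative, gave 3.14, 3.08, 1.72 and 1.53, beside 3.03. On direct hybridisation Cbr3 was lower in the double knockout, at -5.21 (adjusted p = 0.000272), whereas Hmox1 at 0.34 (SE 0.11, adjusted p = 0.0894) and Akr1b7 at -0.55 (SE 0.66, adjusted p = 0.594) were not called. Set against the Nrf2 knockout through wild type, where 1871 genes (11.4%) were higher and 1146 (7%) lower, 5 of the 28 targets were higher and 3 lower in the double knockout.

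Glutathione genes followed the same course. Of 30 tested, 2 rose and 17 fell against wild type (median -0.58), beside 20 and 4 (median 0.99) in the Atg7 conditional knockout; median centring gave 2 and 7, and 9 fell and 1 rose without experiment 6. Gsta1, an alpha class transferase, lay at -1.83, -1.73, -1.88 and -1.91 (mean -1.84 ± 0.08, adjusted p = 0.00256), beside 3.76, and the direct ratio was -5.01 (adjusted p = 0.000402). Gclm, the regulatory subunit of the enzyme that starts glutathione synthesis, gave -0.47, -0.43, -0.65 and -0.62 (mean -0.54 ± 0.13, adjusted p = 0.00356), beside 0.70. Both genes lay below wild type on every array in the double knockout and above it in the mean of the Atg7 conditional knockout. The catalytic subunit gene Gclc averaged -0.59 (adjusted p = 0.0287), beside 2.55. The transferase genes Gstt3, Gsta3 and Gsta2 averaged -2.30 ± 0.69, -2.24 ± 0.77 and -1.74 ± 1.07; alpha class transferases are close paralogs, and the signal of one probe may include another gene. The 2 members that rose were Ggct, which breaks down glutamyl dipeptides, at 0.72 ± 0.03, and Gpx2, a glutathione peroxidase, at 0.21 ± 0.01. Of 26 genes of this list with a RefSeq window, 6 held the antioxidant motif, as did 6 of 26 (23.1%) of the other targets. The share was 14.6% of the 10846 tested genes with a window and 15.4% of those called higher at least 2-fold. It was 20.8% in the type I interferon list, 20% in the interferon-gamma and antigen presentation lists and 8% in the interleukin 6 list. The motif was thus not particular to the antioxidant lists. In the pentose phosphate pathway and other NADPH supply, 1 of 10 genes rose, G6pdx, the entry enzyme, at 1.21 ± 0.04, and 3 fell, among them Me1, malic enzyme, at -1.95 ± 0.32, and Idh1, a cytosolic isocitrate dehydrogenase, at -1.10 ± 0.18.

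**Figure D3:**
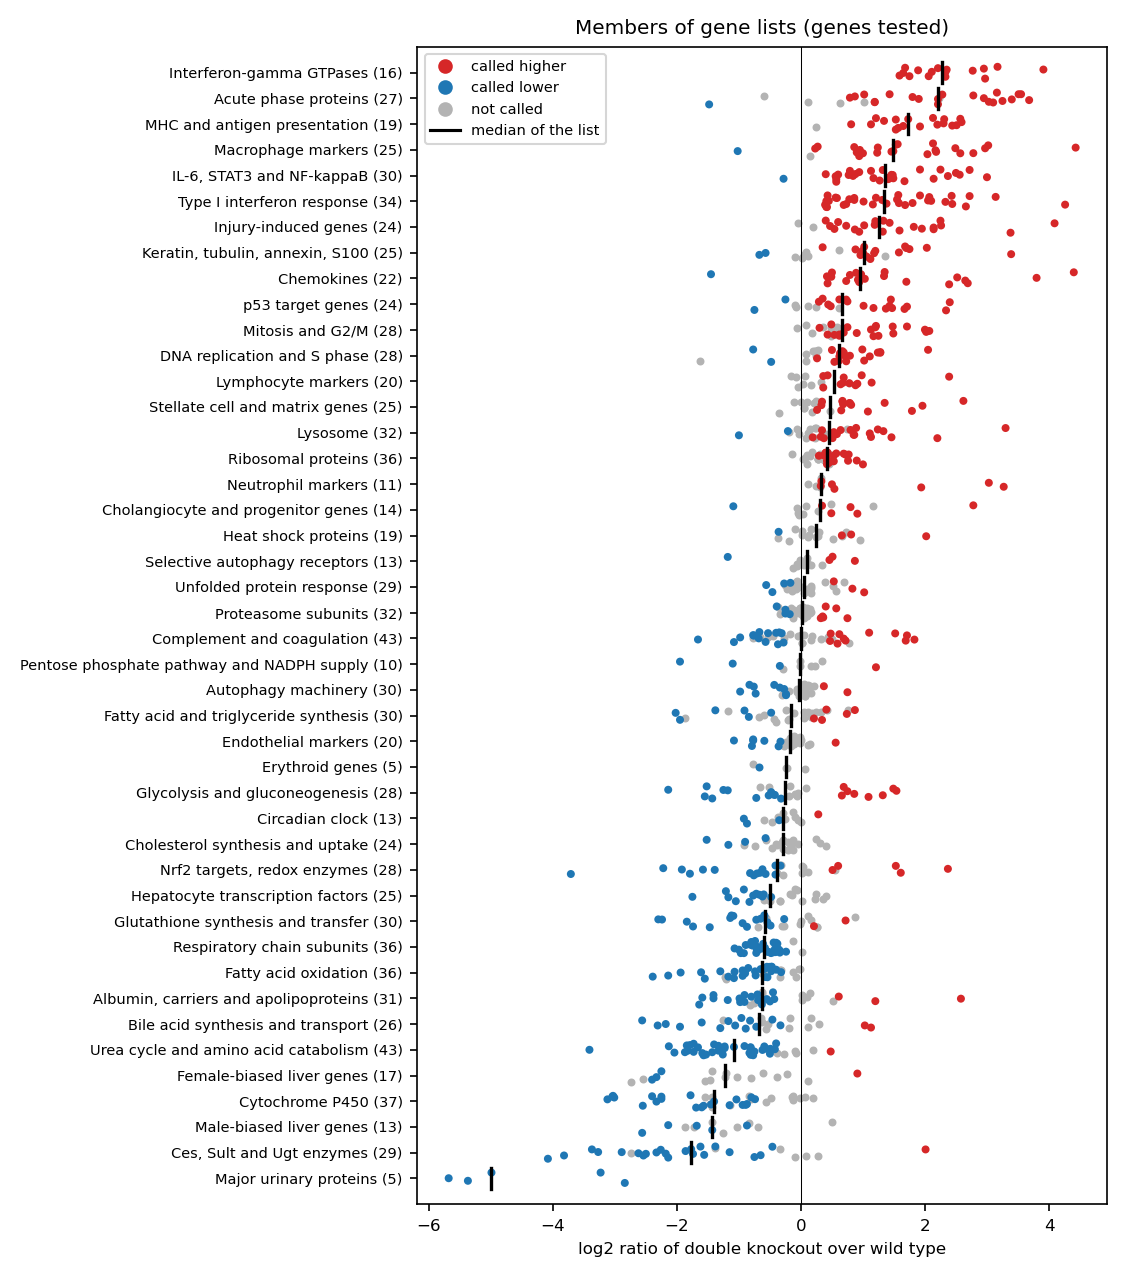
Log2 ratio of double knockout over wild type (x axis) of each tested gene of 44 gene lists, with called higher genes in red, called lower in blue, uncalled in grey, the number of genes in parentheses and a black bar at the list median. Interferon-gamma GTPases (median 2.27) and acute phase proteins (2.21) stand highest and major urinary proteins (-4.99) lowest.

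Interferon-gamma induced GTPases and their partners, which attack membranes around intracellular pathogens, were higher in every case tested. Of 18 on the array 16 passed the filter on dim probes, and all 16 rose (median 2.27, 2.91 on processed signals). The median was 0.56 in the Atg7 conditional knockout and 0.20 in the Nrf2 knockout. Over all 18, without the filter, 16 rose and 0 fell (median 2.16). Tgtp1 lay at 4.01, 3.93, 3.92 and 3.79 (mean 3.91 ± 0.08, adjusted p = 0.000331), beside 1.43 in the Atg7 conditional knockout. Gvin1, a very large GTPase, lay at 3.11, 3.16, 3.13 and 3.29 (mean 3.17 ± 0.05, adjusted p = 0.000372), beside 1.18. Igtp, an immunity-related GTPase, gave 3.38, 3.23, 2.79 and 2.39 (mean 2.95 ± 0.50, adjusted p = 0.00738), and its call was lost without experiment 3. The 4 arrays of each of these genes lay above 2. The guanylate-binding protein gene Gbp2 averaged 2.77 ± 0.19, Gbp3 2.97 ± 0.52 and Gbp9 2.35 ± 0.06; GTPases of these families are similar in sequence, and their probes may share signal.

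Directly against the Atg7 conditional knockout all 16 were called higher, beside 6.74% of all genes. Through wild type 13 were, beside 1.75%. The median direct ratio of the list was 2.05. The direct calls used a spread estimated together with the experiments against wild type. With experiments 7 and 8 fitted alone, 10 of 16377 genes were called higher, so not all 16 keep the call. The same limit holds for the direct counts of the lists that follow. Tgtp1 differed by 3.19 (SD 0.37, n = 2; adjusted p = 0.00126) in the direct experiments and by 2.48 through wild type (adjusted p = 0.0076). The direct ratios came from the deposited value table and the others from loess ratios with an offset, so their sizes cannot be compared. Gbp2 differed by 2.40 (adjusted p = 0.00242) and Gvin1 by 2.22 (adjusted p = 0.00197) directly. Of the 10 list members with a promoter window, 8 held the interferon motif and 6 the STAT motif, against 3.28% and 7.18% of tested genes with a window.

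Type I interferon response genes rose in all 34 cases tested (median 1.34, 2.19 on processed signals). The median was 0.95 in the Atg7 conditional knockout and -0.01 in the Nrf2 knockout. Isg15, a ubiquitin-like modifier, lay at 2.99, 2.73, 2.41 and 2.52 (mean 2.66 ± 0.28, adjusted p = 0.00158), beside 1.79, and all 4 arrays were above the mean of the Atg7 conditional knockout. Ifit1, which binds viral RNA caps, averaged 3.14 ± 0.40, Zbp1, a nucleic acid sensor, 2.72 ± 0.19, Oasl2, an oligoadenylate synthetase relative, 2.44 ± 0.06, and Cmpk2, a mitochondrial nucleotide kinase, 2.43 ± 0.38. Directly against the Atg7 conditional knockout 12 were higher and 1 lower, and through wild type 5 were higher and 0 lower. The interferon motif was found in 12 of 24 windows of this list. Among all 487 windows of genes called higher at least 2-fold, 50 held it (10.3%), against 6 of 283 (2.12%) of those called lower.

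Antigen presentation genes were higher. Of 19 tested, 18 rose and 0 fell (median 1.73), beside a median of 0.80 in the Atg7 conditional knockout. The class II chains H2-Ab1, H2-Eb1 and H2-Aa averaged 2.59 ± 0.18, 2.57 ± 0.18 and 2.31 ± 0.18, the peptide loading chain H2-DMb1 2.51 ± 0.03, and Cd74, the invariant chain, 2.44 ± 0.14. Psmb9, a subunit of the immunoproteasome, lay at 2.42, 2.22, 2.29 and 2.27 (mean 2.30 ± 0.03, adjusted p = 0.000738), beside 0.84, and was higher in the double knockout by 1.61 directly (adjusted p = 0.00413). Its 4 arrays spanned little. H2-Q10, a class I gene secreted by liver, was not called at 0.25. In the direct experiments, fitted together with those against wild type, 17 of the 19 were called higher and 0 lower. Class I genes are near-identical paralogs, so their separate values are uncertain.

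Acute phase genes, made by hepatocytes in response to inflammatory cytokines, were higher in the double knockout but not, as a list, in the Atg7 conditional knockout. Of 27 tested, 21 rose and 1 fell (median 2.21), whereas in the Atg7 conditional knockout 8 rose and 7 fell (median -0.03). Saa1, a serum amyloid A protein, gave 5.04, 4.02, 3.29 and 2.39 (mean 3.68 ± 1.19, adjusted p = 0.0028), beside -0.04. Orm2, an orosomucoid, gave 4.36, 4.09, 2.78 and 2.95 (mean 3.55 ± 0.96, adjusted p = 0.00179), beside 0.09. Saa3 gave 4.08, 3.30, 2.69 and 2.57, beside -0.03. In each, experiment 3 was the higher and all arrays exceeded a 4-fold ratio. Hp, haptoglobin, which binds free haemoglobin, gave 3.81, 2.17, 4.11 and 1.70 (mean 2.95 ± 0.06, adjusted p = 0.000442), beside 1.30; here the 2 dye orientations differed more than the 2 experiments. Hpx, hemopexin, averaged 3.10 ± 0.43 and Lcn2, which withholds iron from bacteria, 3.03 ± 0.08. Cd14, the endotoxin co-receptor, also counted in this list, averaged 3.25 ± 1.30.

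Fibrinogen genes stood on opposite sides of wild type in the 2 autophagy-deficient genotypes. Fgg gave 1.47, 0.56, 1.34 and 0.11 (mean 0.87 ± 0.20, adjusted p = 0.0143), beside -1.78 in the Atg7 conditional knockout, and the direct ratio was 2.49 (adjusted p = 0.00463). Its call against wild type was lost without either DKO experiment. Fgb stood at 1.02 beside -1.04, and Fga at 0.79 beside -1.15. Ceruloplasmin (Cp) averaged 2.21, Itih3, an inter-alpha inhibitor chain, 1.80, and Hamp, the iron hormone hepcidin, 1.19. Crp was not called at -0.60 and Serpina3m, a protease inhibitor, fell by 1.48 ± 0.39. Directly against the Atg7 conditional knockout, in the fit with the other experiments, 19 of the 27 were called higher and 0 lower. Through wild type the counts were 18 and 0. The list median was 2.38 in experiment 3 and 1.55 in experiment 6.

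Genes of the interleukin 6, STAT3 and NF-kappaB pathways rose in 29 of 30 cases (median 1.36, beside 0.56). Cebpd, a transcription factor of the acute phase response, gave 3.81, 3.83, 2.21 and 2.14 (mean 3.0 ± 1.16, adjusted p = 0.00378), with experiment 3 above experiment 6. The adhesion receptors Vcam1 and Icam1 averaged 2.72 ± 0.13 and 2.56 ± 0.69, Casp4, the caspase that senses cytosolic endotoxin, 2.50 ± 0.72, and Tlr2, a receptor for bacterial lipopeptides, 2.37 ± 0.43. The 1 that fell was Il6ra, a chain of the interleukin 6 receptor, at -0.28 ± 0.03, whose call was lost under median centring. In the direct experiments, fitted together with those against wild type, 12 of the 30 were called higher and 0 lower. A kappaB motif was found in 5 of 25 windows of this list and in 16 of the 487 windows (3.29%) of all genes called higher at least 2-fold, against 1.21% of tested genes.

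Of 25 chemokine genes on the array 22 passed the filter on dim probes. Of these, 4 were above background in no wild-type channel, and all 4 were called higher. Among the 22 that passed 21 rose and 1 fell (median 0.95, 2.83 on processed signals, beside 0.76). Without that filter 21 rose and 1 fell (median 0.92). Cxcl1 gave 4.10, 3.84, 3.72 and 3.55 (mean 3.80 ± 0.24, adjusted p = 0.00111), beside 0.78 (adjusted p = 0.0886), and was higher directly by 3.47 (adjusted p = 0.0139). Every array lay above 3. Cxcl10 was not called directly, at 1.16 (adjusted p = 0.184). Cxcl9, a T cell attractant induced by interferon-gamma, averaged 2.69 ± 0.46, Ccl5 2.65 ± 0.05, Ccl6 2.52 ± 0.27 and Ccl2, which draws monocytes, 2.39 ± 0.18, beside 2.35 for Ccl2. Cxcl12, which stromal and endothelial cells make constitutively, fell by 1.45 ± 0.31, beside -1.66. Complement and coagulation genes split, with 11 higher and 14 lower of 43 (median 0.00), but 12 and 5 on processed signals, 11 and 4 under median centring and 7 and 4 without experiment 3. The C1q chains C1qc, C1qb and C1qa, which macrophages make, averaged 1.83 ± 0.10, 1.71 ± 0.03 and 1.52 ± 0.18. C8g, a chain of the membrane attack complex made by hepatocytes, fell by 1.66 ± 0.13.

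Macrophage markers were raised in the double knockout. Of 25 tested, 23 rose and 1 fell (median 1.49, 2.51 on processed signals, beside 1.33), and their summed signal was 64200 to 83900 in the DKO channels and 9730 to 15700 in the wild-type channels. Of the 25, 21 were well above background in all wild-type channels and 3 in none. Clec7a, the beta-glucan receptor, averaged 3.02 ± 0.04, Lyz2, lysozyme, 2.97 ± 0.39, Spp1, osteopontin, 2.78 ± 0.43, Cd5l, a scavenger-receptor family protein, 2.57 ± 0.05, and Adgre1, the F4/80 antigen, 2.17. Timd4, a marker of resident Kupffer cells, gave 0.64, 0.50, 1.22 and 1.09 (mean 0.86 ± 0.42, adjusted p = 0.0107), beside -0.43. It was above wild type on all arrays, and higher directly by 2.28 (adjusted p = 0.0151). Clec4f, another Kupffer cell marker, averaged 1.0, and Trem2, a lipid receptor of recruited macrophages, 1.53 beside 2.43. Cd163, the haptoglobin-haemoglobin receptor, fell by 1.02 ± 0.79, a call lost under median centring. In whole liver, more cells of a type and more RNA per cell cannot be told apart.

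Markers of other leukocytes were also higher. Of 13 neutrophil markers on the array 11 passed the filter on dim probes, 7 of them above background in no wild-type channel, so their count and median describe the genes that passed: 7 rose and 0 fell (median 0.33, 2.90 on processed signals; 4 rose without experiment 6). Without that filter, over all 13, 8 rose and 0 fell (median 0.32). The alarmin genes S100a9 and S100a8 averaged 3.27 ± 0.72 and 1.94 ± 0.45. The summed signal of the list was 6390 to 14500 against 1310 to 2180, and 2990 to 5390 against 900 to 921 without Lcn2, which was also counted among the acute phase genes. Of 20 tested lymphocyte markers 12 rose and 0 fell (median 0.53, 1.72 on processed signals; without the filter 13 of 24 rose, median 0.36), 5 of the 20 being above background in no wild-type channel, with summed signals of 2850 to 3110 against 1610 to 1690, and 10 were higher directly against the Atg7 conditional knockout. The pan-leukocyte phosphatase gene Ptprc averaged 2.39 ± 0.30, the immunoglobulin joining chain gene Jchain 1.14 ± 0.42 and the granzyme gene Gzma 0.91 ± 0.18. Cd3e, which marks T cells, was not called, at -0.16.

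Endothelial markers leaned lower. Of 20 tested, 1 rose and 7 fell (median -0.17), with summed signals of 4210 to 5830 against 6520 to 6800, but the calls were 1 and 2 without experiment 3 and 2 and 3 under median centring. Ptprb, a phosphatase of vascular endothelium, averaged -1.08 ± 0.68 and Clec4g, a lectin of sinusoidal endothelium, -0.77 ± 0.42. The adhesion gene Cdh5 averaged 0.56 ± 0.38, and the pan-endothelial Pecam1 was not called at 0.15. Of 27 stellate cell and matrix genes on the array 25 passed the filter, and 15 of these rose with 0 lower (median 0.47, 1.12 on processed signals). Without the filter 13 rose and 0 fell (median 0.34). The summed signals of the 25 were 13100 to 14900 against 7620 to 8750. The fibrillar collagen genes Col1a1 and Col3a1 averaged 1.96 ± 0.02 and 1.79 ± 0.02 and Vim, vimentin, 2.62 ± 0.32. The stellate cell markers Des and Lrat were not called, at 0.09 and -0.11. Des was well above background in 1 wild-type and 4 DKO channels, and the offset shrinks the ratios of such dim spots. Directly against the Atg7 conditional knockout 0 of the list were higher and 4 lower.

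Injury-induced genes rose in 22 of 24 tested cases (median 1.26, 2.21 on processed signals, beside 1.21; 20 of 30 without the filter, median 0.98), though 12 were called without experiment 3 and 14 without experiment 6. Slpi lay at 4.37, 4.16, 3.99 and 3.85 (adjusted p = 0.000675), beside 3.14. Ly6d, a surface antigen, lay at 3.48, 3.58, 3.18 and 3.28 (mean 3.38 ± 0.21, adjusted p = 0.000282), beside 4.08, with a direct ratio of -2.10 (adjusted p = 0.00567). Spink1, a trypsin inhibitor, averaged 2.14 ± 0.28 beside 5.03, with a direct ratio of -3.36. Both thus stood above wild type and below the Atg7 conditional knockout. Tnfrsf12a, the receptor for TWEAK, averaged 2.25 ± 0.24, beside 2.61. Through wild type 0 genes of the list were higher and 4 lower than in the Atg7 conditional knockout. Keratin, tubulin, annexin and S100 genes were called higher in 16 of 25 cases and lower in 2 (median 1.01, beside 1.14). The annexin genes Anxa5 and Anxa2 averaged 1.75 ± 0.08 and 1.68 ± 0.06, whereas S100a10, the partner of annexin A2, stood at -0.67 ± 0.36 beside 1.09. Of 20 cholangiocyte and progenitor genes on the array 14 passed the filter, and 5 of these rose and 1 fell (median 0.31), but 2 rose without experiment 3; over all 20, without the filter, the median was 0.03. The bile duct keratin Krt19, at -0.03, was not called and was well above background in 2 wild-type and 3 DKO channels. Summed signals of the list were 5320 to 5940 against 2140 to 2440, but 1550 to 1630 against 1590 to 1640 without Spp1 and Prom1, which other lists also hold; these last ranges overlap.

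Cell cycle genes were higher. Of 28 tested genes of mitosis and G2/M, 11 of them above background in no wild-type channel, 20 rose and 0 fell (median 0.66, 2.96 on processed signals, beside 1.08; 19 of 30 rose without the filter, median 0.62), with 11 called without experiment 3 and 7 without experiment 6. Mki67, the proliferation antigen, lay at 2.01, 1.89, 2.10 and 2.06 (mean 2.02 ± 0.09, adjusted p = 0.00294), beside 2.06, and the arrays hardly differed. Birc5, survivin, averaged 2.07 ± 0.24 and Cdc20, an activator of the anaphase complex, 2.0 ± 0.07. Of 28 S phase genes 18 rose and 2 fell (median 0.62, 1.07 on processed signals, beside 0.94), and 10 rose without either experiment. The helicase gene Mcm6 averaged 2.05 ± 0.32. Tk1, thymidine kinase, stood at -0.77 ± 0.20. Of 24 p53 target genes 17 rose and 2 fell (median 0.67, 1.39 on processed signals), 11 and 1 without experiment 6. Trp53inp1, a stress-induced partner of p53, lay at 2.43, 2.35, 2.45 and 2.38 (mean 2.40 ± 0.02), Phlda3, an Akt inhibitor, averaged 2.34 ± 0.28, and Cdkn1a, the p21 inhibitor of cyclin-dependent kinases, 1.45 ± 0.41. Perp, a p53-induced membrane protein, fell by 0.75 ± 0.06, a call lost under median centring. Ribosomal protein genes rose in 19 of 36 cases with 0 lower (median 0.42), but 4 were called without experiment 3 and 3 without experiment 6; Rps12 gave 1.31, 0.51, 1.72 and 0.47, the dye orientations differing more than the experiments.

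In the main fit, stress chaperone and proteasome genes were called near or below the shares of all genes, 21.4% higher and 16% lower. Of 29 unfolded protein and integrated stress genes 3 rose (10.3%) and 4 fell (13.8%), with a median of 0.05 beside -0.37. Processed signals gave 4 and 0, and median centring 6 and 1. The stress transcription factor genes Atf3 and Ddit3 averaged 1.02 ± 0.27 and 0.83 ± 0.22 and the hormone Fgf21 0.53 ± 0.10, beside 1.35. The endoplasmic reticulum chaperone gene Hspa5 was not called at 0.16. Of 19 heat shock genes 3 rose (15.8%) and 1 fell (5.26%), with a median of 0.24. Hspa1a, inducible Hsp70, averaged 2.02 ± 0.69. With the slide as a block 10 heat shock genes rose. Of 32 proteasome subunit genes 6 rose (18.8%) and 4 fell (12.5%), near the shares of all genes, with a median of 0.02. Psmb5, a catalytic subunit, averaged -0.25 ± 0.00 beside 0.53 in the Atg7 conditional knockout, but 0.01 under median centring.

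**Figure D4:**
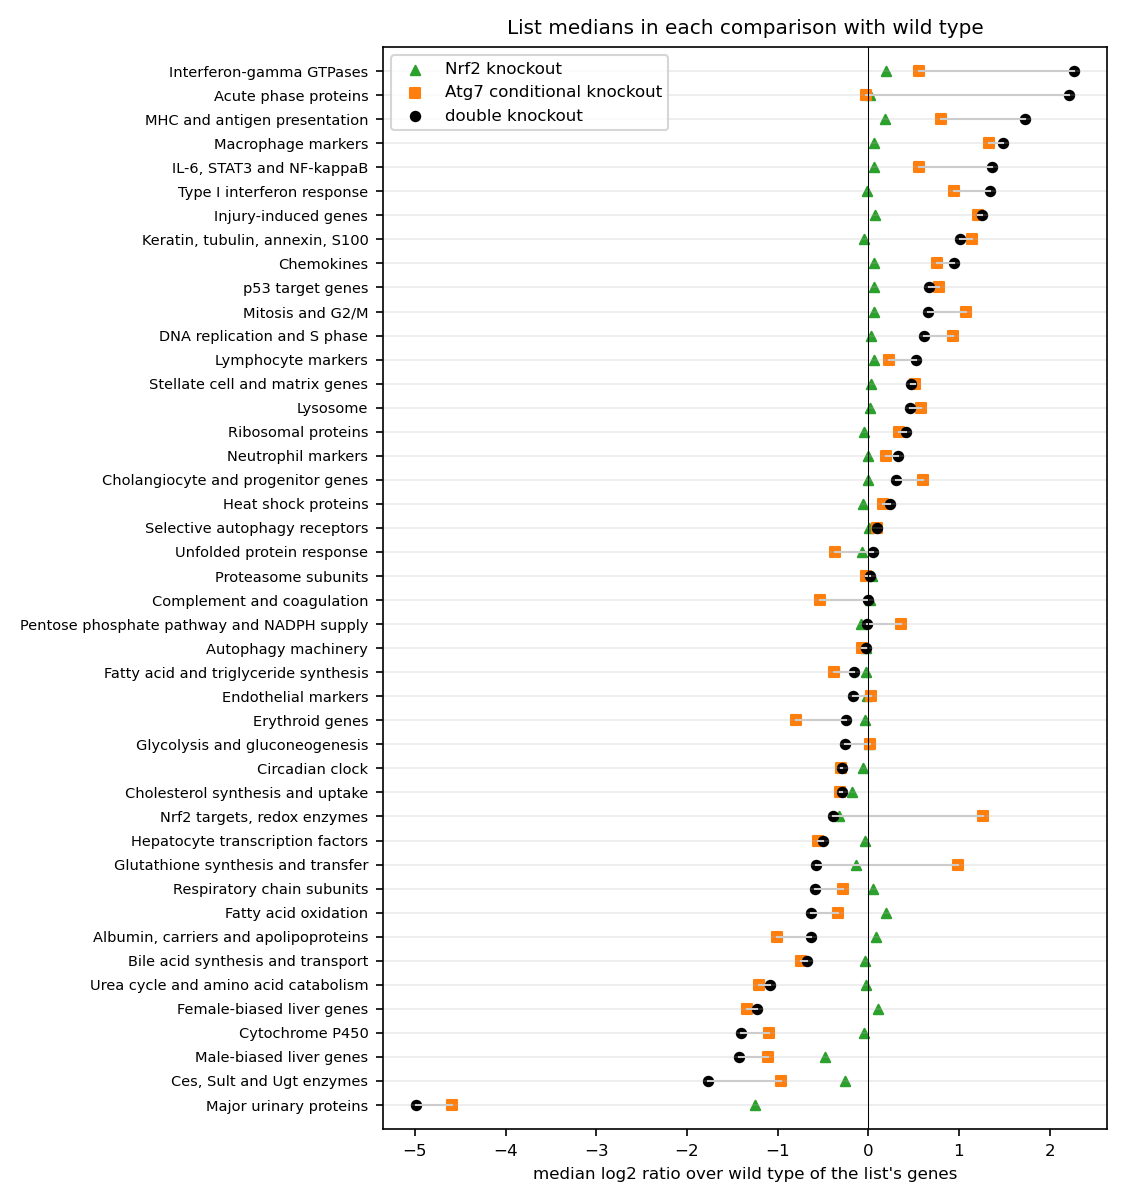
Median log2 ratio over wild type (x axis) of each gene list in the Nrf2 knockout (green triangles), the Atg7 conditional knockout (orange squares) and the double knockout (black circles); all 3 share wild type as the partner. Acute phase (2.21 beside -0.03) and interferon-gamma genes (2.27 beside 0.56) stand to the right in the double knockout, and Nrf2 targets (-0.39 beside 1.27) and glutathione genes (-0.58 beside 0.99) to the left.

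Liver-specific products fell broadly. Of the 8 hepatocyte markers, all well above background in wild type, 6 fell and 1 rose, with summed signals of 51600 to 91300 in the DKO and 80300 to 102000 in the wild-type channels, ranges that overlap. Alb, albumin, gave -1.46, -2.63, 0.33 and -1.87 (mean -1.41 ± 0.90, adjusted p = 0.0163), so 1 array of experiment 6 went the other way. All 5 tested genes of the major urinary protein list, whose products mice excrete as scent carriers, fell (median -4.99, beside -4.59, and -1.25 in the Nrf2 knockout); Mup6, Mup5, Mup3 and Mup4 averaged -5.37, -4.99, -3.23 and -2.84, and near-identical members may share signal. Mup10, given above, is not in that list. Of 31 carrier and apolipoprotein genes 3 rose and 18 fell (median -0.63), but 8 fell on processed signals, 10 under median centring and 7 without experiment 3. Igfbp1, a binding protein for insulin-like growth factors, gave 3.42, 2.66, 2.72 and 1.5 (mean 2.58 ± 0.66, adjusted p = 0.0126), beside 0.15, and its call was lost without experiment 3. Ambp, the precursor of bikunin, averaged 1.20 ± 0.56 and Trf, transferrin, 0.61 ± 0.19. Of 25 hepatocyte transcription factor genes 0 rose and 12 fell (median -0.50), but 3 rose and 5 fell under median centring and 6 fell without experiment 6. Nr1i3, the xenobiotic receptor CAR, averaged -1.75 ± 0.08, Cebpa -1.21 ± 0.30 and the carbohydrate-responsive factor gene Mlxipl -1.05 ± 0.16.

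Drug-metabolising enzymes were among the lowest lists. Of 37 cytochrome P450 genes 0 rose and 22 fell (median -1.40), beside 5 and 18 (median -1.09) in the Atg7 conditional knockout. Cyp2a5, a coumarin hydroxylase, gave -2.51, -2.81, -2.77 and -3.93 (mean -3.01 ± 0.49, adjusted p = 0.00241), beside 3.36, and its direct ratio was -6.13 (adjusted p = 0.00066). It was below wild type on every array of the double knockout. Its close paralog Cyp2a4 averaged -2.25 ± 0.72 beside 4.05. Cyp2c54 and Cyp2c37, of the arachidonate-metabolising 2C family, averaged -3.12 ± 0.14 and -3.04 ± 0.14, and Cyp4a10, a fatty acid hydroxylase, -3.03 ± 0.31, beside -3.29, -3.06 and -3.49. Of 29 carboxylesterase, sulfotransferase and glucuronosyltransferase genes 1 rose and 22 fell (median -1.77, beside -0.96). Ces1g gave -3.45, -3.26, -3.41 and -3.35 (mean -3.37 ± 0.02, adjusted p = 0.00131), beside 1.12, with a direct ratio of -4.27. Its relative Ces1f was lower in both genotypes, at -4.08 beside -1.70. Ces1e averaged -3.27 ± 0.30 and Ugt2b1 -2.89 ± 0.50. Sult1e1, the oestrogen sulfotransferase, was the 1 member that rose, at 2.01 ± 0.41 beside 2.03. Directly against the Atg7 conditional knockout 10 genes of this list were lower and 0 higher.

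Transcripts of amino acid and bile acid enzymes were lower. Of 43 urea cycle and amino acid genes 1 rose and 37 fell (median -1.08, beside -1.20), 22 without experiment 3. Prodh, proline dehydrogenase, averaged -2.13 ± 0.53, Bhmt, which remethylates homocysteine, -2.04 ± 0.84, Gnmt, which consumes methyl donors, -1.87 ± 0.27, Hal, histidase, -1.84 ± 0.16, and Tdo2, which opens tryptophan breakdown, -1.83 ± 0.90. The 1 that rose was Sdsl, a serine dehydratase relative, at 0.48 ± 0.25. Of 26 bile acid genes 2 rose and 14 fell (median -0.68), 9 without experiment 3. Slc10a1, the sodium-dependent bile acid uptake carrier, lay at -2.46, -2.53, -2.11 and -2.15 (mean -2.31 ± 0.26, adjusted p = 0.00073), beside -2.19, with little spread among arrays. Cyp7a1, the rate-limiting enzyme of bile acid synthesis, gave -2.99, -2.94, -1.41 and -1.36 (mean -2.18 ± 1.12, adjusted p = 0.0184), and its call was lost without experiment 3. The hydroxylase genes Cyp7b1 and Cyp8b1 averaged -2.56 ± 0.77 and -1.95 ± 0.50. The 2 that rose were the apical uptake carrier gene Slc10a2, at 1.13 ± 0.44, and Slc51b, a chain of the basolateral exporter, at 1.03 ± 0.75.

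Fat burning and respiration genes were lower without a called gene in the other direction. Of 36 fatty acid oxidation and PPAR alpha genes 26 fell (median -0.63, beside -0.33), but 14 under median centring and 12 without experiment 3. Acsl1, which activates fatty acids, averaged -2.39 ± 0.55, Acot1, a thioesterase, -2.14 ± 0.57, and Cpt2, of the carnitine shuttle, -1.30 ± 0.06. Of 36 respiratory chain genes 34 fell (median -0.59, beside -0.28), with 15 on processed signals, 16 under median centring, 22 on the value table and 14 without experiment 3. The succinate dehydrogenase genes Sdha and Sdhb averaged -1.07 ± 0.29 and -0.92 ± 0.14 and Ndufb5, of complex I, -1.0 ± 0.25. The median of the respiratory list was -0.39 on processed signals and -0.41 under median centring.

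Lipid synthesis genes showed no common direction. Of 30 fatty acid and triglyceride genes 5 rose and 6 fell (median -0.16, 0.04 under median centring); 2 fell without experiment 3 and 3 without experiment 6. Thrsp, a regulator of lipogenesis, averaged -2.02 ± 0.67 and Plin2, which coats lipid droplets, 0.74 ± 0.41. Of 24 cholesterol genes 0 rose and 4 fell (median -0.29; -0.05 with 2 lower without experiment 3, -0.68 without experiment 6), among them Stard4, a sterol carrier, at -1.52 ± 0.38. In sugar metabolism 8 of 28 genes rose and 12 fell (median -0.26, beside 0.02). The hexokinase genes Hk3 and Hk2 averaged 1.49 ± 0.11 and 1.32 ± 0.05, and Pfkfb3, which drives glycolysis, 1.54 ± 0.57. Slc2a2, the hepatocyte glucose transporter, gave -2.71, -2.65, -1.50 and -1.69 (mean -2.14 ± 0.77, adjusted p = 0.00316), beside -0.36, with a direct ratio of -1.98 (adjusted p = 0.0385). All 4 arrays were below the mean of the Atg7 conditional knockout. G6pc, the glucose-releasing phosphatase, averaged -1.55 ± 0.82 and Gys2, liver glycogen synthase, -1.43 ± 0.82. Of 13 clock genes 1 rose and 3 fell (median -0.29), 0 and 0 without experiment 3.

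Genes that differ between male and female liver stood far below wild type in 1 experiment and near it in the other. Of 13 male-biased genes 0 rose and 5 fell, with a median of -2.35 in experiment 3 and -0.16 in experiment 6; 1 fell without experiment 3, 3 without experiment 6 and 11 with the slide as a block. Of 17 female-biased genes 1 rose and 3 fell, with medians of -0.14 in experiment 3 and -2.14 in experiment 6; with the slide as a block 11 fell. Hsd3b5, a male-biased steroid reductase, gave -3.30, -3.56, -0.05 and 0.03, and Cyp4a12a, a male-biased hydroxylase, -2.81, -2.87, -0.05 and 0.02. Sult3a1, a female-biased sulfotransferase, gave -0.01, -0.06, -5.44 and -5.44. In each gene both dye orientations of 1 experiment lay near 0 and both of the other far below. None of these 3, chosen after their values were seen, was called in the mean of the 2 experiments. Experiment 3 was the one in which the Y-linked transcripts were above background, and experiment 6 the one in which Xist was. The part of the animals' sex in these values was not tested.

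A call favours genes whose 2 experiments are alike but does not require it, because the estimate of spread was shared over 3 group means. The spread between experiments is therefore given as a description. The 675 genes called higher at least 2-fold had medians of 1.51 (experiment 3) and 1.44 (experiment 6), and 30 of them differed between the experiments by 2-fold or more. Over the 383 called lower at least 2-fold the medians were -1.61 and -1.29, and 41 differed by 2-fold or more. Over all genes 238 differed that much. Erythroid genes had a median of -1.29 and 0.55 in the same order, with Klf1, the erythroid transcription factor, called at -0.67 ± 0.03; Hba-a1 gave -1.39, -1.20, 0.84 and 0.81, and the summed signal of 5 erythroid genes was 2700 to 12600 in the DKO and 5810 to 8840 in the wild-type channels. Calls and the difference between experiments both grew with brightness. When genes were split into 4 equal classes by brightness, 12.5% of the dimmest class were called and 55.6% of the brightest. The median absolute difference between experiments was 0.066 and 0.17 in the same order. The offset shrinks the ratios of dim spots, so the smaller difference in the dimmest class does not show greater precision.

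Some genes were measured in only 1 of the 2 genotypes. Of 16377 tested genes, 423 were well above background in the DKO channel of all 4 arrays and the wild-type channel of none. The other way round there were 18. Their direction follows from this choice, so no p-values are given, and their ratios are lower bounds set by the dimmest measurable signal. Uhrf1, which maintains DNA methylation in S phase, was at least 2.36-fold higher. The glutamate transporter gene Slc1a1 was at least 2.25-fold higher, the condensin subunit gene Ncapg at least 2.18-fold and the glycan-branching enzyme gene Gcnt1 at least 2.12-fold. Irak3, an inhibitor of Toll-like receptor signalling, was at least 2.06-fold higher, Chil4, a chitinase-like protein, at least 2.02-fold, and F13a1, the factor XIII chain of macrophages and platelets, at least 1.99-fold. In the other direction Defb19, a beta-defensin, was at least 1.73-fold lower.

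The double knockout was also set directly against the Atg7 conditional knockout. The 675 genes called higher than wild type at least 2-fold had medians of 1.46 in the double knockout, 1.09 in the Atg7 conditional knockout and 0.08 in the Nrf2 knockout, all against wild type. In the direct experiments 215 (31.9%) were higher and 26 (3.85%) lower than in the Atg7 conditional knockout, with a median direct ratio of 0.63. The 383 called lower at least 2-fold had medians of -1.44, -1.12 and -0.12 in the same order, and 10 (2.61%) were higher and 110 (28.7%) lower directly. Both sets were chosen by their double knockout ratios, which favours larger medians in that genotype. Their medians are therefore only a description and do not show stronger changes in the double knockout. Over all genes 797 were called in both the direct and the through-wild-type comparison with 1 sign (98% of the 813 called through wild type and 32.9% of the 2426 called directly), 282 higher and 515 lower, and 0 with opposite signs. Among the highest of these by the difference through wild type were Saa1 (direct ratio 3.73, adjusted p = 0.0094), Saa2, Orm2, Saa3 and Cxcl1, and among the lowest Cyp2a5, Cyp2a4 and Gsta1. In the 2 direct experiments the ratios of all genes correlated at 0.667 on the deposited value table. The 0.865 between experiments 3 and 6 came from loess ratios with an offset, so the 2 correlations cannot be compared. When experiments 7 and 8 were fitted alone, 109 genes were called, 10 higher and 99 lower.

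**Figure D5:**
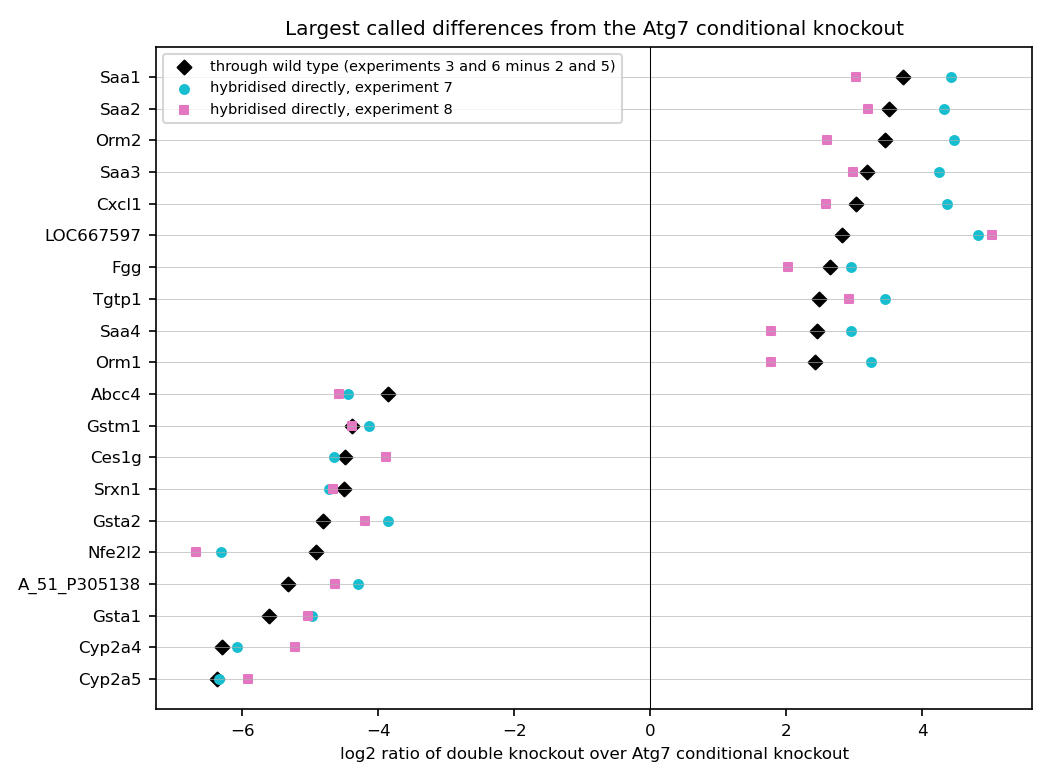
Log2 ratio of double knockout over Atg7 conditional knockout for the 10 highest and 10 lowest genes called both ways: black diamonds are the difference through wild type, blue circles and pink squares the direct experiments 7 and 8. Saa1 to Orm1 lie above 0 and Abcc4 to Cyp2a5 below 0 by every measure shown.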

How the data were processed

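Liver RNA (500 ng per labelling, per the labels' protocols) was hybridised in 2 colours to Agilent whole mouse genome arrays. The authors deposited scanner files of experiments 1 to 6, which hold linear intensity values of mean signal and local median background per spot, extracted with Agilent Feature Extraction 9.5.1 per the submitters' processing notes (9.5.1.1 per the file headers), on build mm9. The authors also deposited a value table of log10 ratios for all 16 arrays, which equals the scanner files' log ratios within 0.005 where both exist and was converted to log2 for experiments 7 and 8. Log2 values were computed here with limma 3.58.1 in R 4.3.3: normexp background correction with an offset of 50, which shrinks the ratios of dim spots, loess within each array, ratios turned to knockout over wild type by the labelled dyes, and averaging of each dye swap. Control and outlier spots were left out. Probes well above background in at least 4 of 24 channels were kept, and the brightest kept probe stood for a gene. Of 41174 probes 24844 were named by accession and 7855 by symbol through the RefSeq tables, and 8475 kept the file's name.

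Experiments 1 to 6 were fitted with 3 group means (3 residual degrees of freedom, plus 2.21 from moderation). The direct comparison with the Atg7 conditional knockout used the value table of experiments 1 to 8. Genes were named by rule: the targeted genes, the 20 highest and 20 lowest called ratios, up to 6 called members of each list with the largest ratios and up to 3 going against them, the 10 highest and 10 lowest differences from the Atg7 conditional knockout, the largest bounds and the sex-linked transcripts; further list members were picked after their values were seen. Fold bounds use the lowest signal among probes well above background on an array. The comparisons, gene lists and members were chosen with earlier results of these data known. The fits were tested on simulated data. Processed signals, median centring, other filters, the value table, slide and set blocks, single arrays and leaving out each experiment were tried; summed marker signals without genes that another list holds were added after the values were seen.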

Additional observations from a re-analysis of the deposited data

Results flagged for a closer look

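In 2 genes each experiment showed at least a 2-fold difference, in opposite directions. Crym, mu-crystallin, a thyroid hormone binding protein, gave 1.11 and 1.03 in experiment 3 and -1.94 and -2.39 in experiment 6, so that experiment 3 minus experiment 6 was 3.24 on the log2 scale. Hbb-bt, a beta globin chain of red cells, gave -1.75 and -1.34 in experiment 3 and 1.0 and 1.12 in experiment 6, a difference of -2.61. The difference between the experiments was not tested in either gene, and neither was called in the mean of both. Hba-a1 differed between the experiments in the same direction as Hbb-bt.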

How the results depend on the processing

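No paired analysis was possible because no 2 groups share a replicate number: the experiments are numbered 1 to 8 across groups. Slides, and experiments 1 to 3 against 4 to 6 (the set of experiments), were fitted as blocks instead. Against wild type 5356 genes were called with the slide as a block and 7347 with the set as a block. The 6124 genes called against wild type became 2820 without experiment 3 and 3395 without experiment 6 (range over left-out experiments 2820 to 6163). The 813 genes differing from the Atg7 conditional knockout through wild type became 234 on processed signals, 371 with median centring, 210 on the value table, 198 with the slide as a block, 1402 with the set of experiments as a block and 2445 with single arrays (80 to 384 over left-out experiments). The 3017 differing from the Nrf2 knockout became 1945 with median centring, 1554 with the slide as a block and 4746 with single arrays (36 to 3255). The 2426 differing on direct hybridisation became 109 with experiments 7 and 8 alone and 4209 with single arrays (301 to 1827). Leaving out an experiment leaves 1 in a group, which is then assumed to vary like the others. The sign turned, under median centring, for the median of fatty acid and triglyceride synthesis (0.04) and for Mcoln1 (0.08), Pidd1 (0), Psmb5 (0.01) and Sel1l (0.02), and, without experiment 3, for the erythroid median (0.55, and -1.29 without experiment 6) and the heat shock median (0, and 0.56 without experiment 6). Medians within 0.1 of 0 turned too: autophagy machinery (0.18 under median centring, 0.01 without experiment 3), pentose phosphate (0.21 under median centring, 0.13 on processed signals), unfolded protein (-0.02 without experiment 3, -0.01 on the mean of kept probes), proteasome (-0.05 without experiment 3) and autophagy receptors (-0.03 on the mean of kept probes). The cause was not tested. Of 295 called genes among 306 checked, 80 lost the call without experiment 3 and 61 without experiment 6. Signal over background limits dim genes, whose ratios the offset shrinks.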

Other observations

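LOC667597 lay at 2.40, 2.38, 2.66 and 2.85 against wild type (mean 2.57 ± 0.26, adjusted p = 0.000675 in limma), beside -0.25 in the Atg7 conditional knockout and 0.79 in the Nrf2 knockout, and its direct ratio was 4.92. Elovl7, a fatty acid elongase, averaged 0.87 ± 0.08, beside 4.05, with a direct ratio of -4.12. Trp53inp1 stood at 2.40 in the double knockout, 1.15 in the Atg7 conditional knockout and 0.80 in the Nrf2 knockout. The unnamed transcript NAP102507-1 averaged -4.16 ± 0.75, beside -1.58 in the Atg7 conditional knockout and -2.61 in the Nrf2 knockout. Atf5, a stress-responsive transcription factor, stood at -0.56 ± 0.12, beside -1.64, and was higher directly by 1.04.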
